A study of Homo sapiens with 12 samples.

Results

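SOCS2, the other suppressor of cytokine signalling genes (SOCS1 and SOCS3 to SOCS7), CISH, STAT5A and STAT5B were examined in LNCaP cells after BRG1 depletion, to see whether the rise of SOCS2 extended to its family and to the STAT5 factors. The genes were taken by symbol. SOCS2 was picked because it rises in these libraries, so its change with BRG1 depletion is described with no test, while the other genes were chosen for their family or pathway and were tested. Of the 10 genes, 9 have a row among the 63568 genes of the deposited table, and SOCS7 has no row matched to its current identifier and is given no value. A minimum of 1 TPM (a level scaled to transcript length and library size) in at least 2 libraries was passed by 7 of the 10, and by 16337 genes in all. SOCS1 and SOCS3 did not pass.

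LNCaP is an androgen-responsive line grown from a lymph node metastasis of prostate cancer, and SMARCA4 encodes BRG1, an ATPase of the SWI/SNF chromatin remodelling complex. Cells were transfected with a non-targeting siRNA pool (si-NT) or with 1 of 2 siRNAs directed at SMARCA4, and RNA was taken at 72 h or, after a second transfection, at 144 h. There were 12 libraries, with 2 si-NT and 4 BRG1 depleted libraries (2 for each siRNA) at each time point. The siRNAs carry the numbers 2 and 3 in the table, which are used here, and 1 library at 72 h carries conflicting siRNA labels that do not affect the BRG1 depleted group. The sources used here do not say that replicates came from separate cultures, so the tests measure the spread between these libraries, which may be technical. All samples are the same cell line, and the control cells also went through transfection.

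SMARCA4 was lower in every BRG1 depleted library, by 2.07 at 72 h and 2.66 at 144 h on the log2 scale. Each of 6 prostate luminal markers was expressed, with a summed level of 1200 to 1765 TPM in si-NT and 1037 to 1751 TPM in depleted libraries. Of 5 immune markers, 0 passed the minimum and 2 were at 0 in every library, and of 6 stromal, endothelial and basal markers only COL1A1 passed. A library held 14706 to 15355 genes at 1 TPM or more, and read depth is unknown because TPM does not keep it.

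Cytokine and growth hormone receptors carry Janus kinases, which phosphorylate STAT factors that then enter the nucleus and switch on genes. SOCS proteins close the loop. They bind the activated receptor or kinase through an SH2 domain and recruit a ubiquitin ligase through the SOCS box, and CISH and SOCS2 are textbook targets of STAT5 that dampen signalling through the growth hormone and prolactin receptors. STAT5A and STAT5B are closely related factors that bind as dimers to a palindrome with the letters TTCNNNGAA.

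The sequence before CISH is shown because it is the classical STAT5-responsive promoter and, of the 7 members with a sequence given, the only one to hold this palindrome. It reads identically on both strands, so a match on one strand is a match on the other. RefSeq start-site windows of 300 bases (250 before and 50 after the start) were given for 7 of the 10 genes, in 10 windows. SOCS2, SOCS5 and SOCS7 were not among them. Among the 7 members CISH alone held a match, with 4, whereas 7.66% of 35116 windows of this length held at least 1 and 0.0484% held at least 3. Outside the members, 1 start-site window of BCL6, a gene described below, also held 4. The 250 bases before the CISH start (chr3:50611775-50612024, GRCh38.p14, reverse strand), written 5′ to 3′ with the 4 matches in capitals, are:
CISH: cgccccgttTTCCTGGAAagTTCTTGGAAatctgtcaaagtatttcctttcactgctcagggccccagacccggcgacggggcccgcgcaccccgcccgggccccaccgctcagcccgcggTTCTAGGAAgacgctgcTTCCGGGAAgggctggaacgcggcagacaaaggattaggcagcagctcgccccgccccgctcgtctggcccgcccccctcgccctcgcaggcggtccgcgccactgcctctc
The 4 matches, TTCCTGGAA, TTCTTGGAA, TTCTAGGAA and TTCCGGGAA, begin 241, 230, 129 and 112 bases before the start. They are matches of letters, and no binding was measured here.

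SOCS2 was low in control cells and rose at both time points. At 72 h it measured 3.63 and 4.14 TPM in si-NT, 10.6 and 16.5 TPM with siRNA 2, and 19.7 and 16.3 TPM with siRNA 3. At 144 h the si-NT libraries held 1.65 and 1.63 TPM, against 24.2 and 32.1 TPM with siRNA 2 and 30.9 and 23.5 TPM with siRNA 3. All 4 depleted libraries lay above both controls at each time point, as they did for 16.3% of all genes at 72 h and 26.1% at 144 h, with mean levels 4.06-fold higher (15.8 ± 3.80 TPM, SD, n = 4) and 16.9-fold higher (27.7 ± 4.42 TPM, SD, n = 4). On log2(TPM + 1), a scale that understates the change of low genes, the differences were 1.75 (SE 0.20) at 72 h and 3.43 (SE 0.20) at 144 h. These were rise number 22 and rise number 3 among the 16337 genes.

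**Figure D1:**
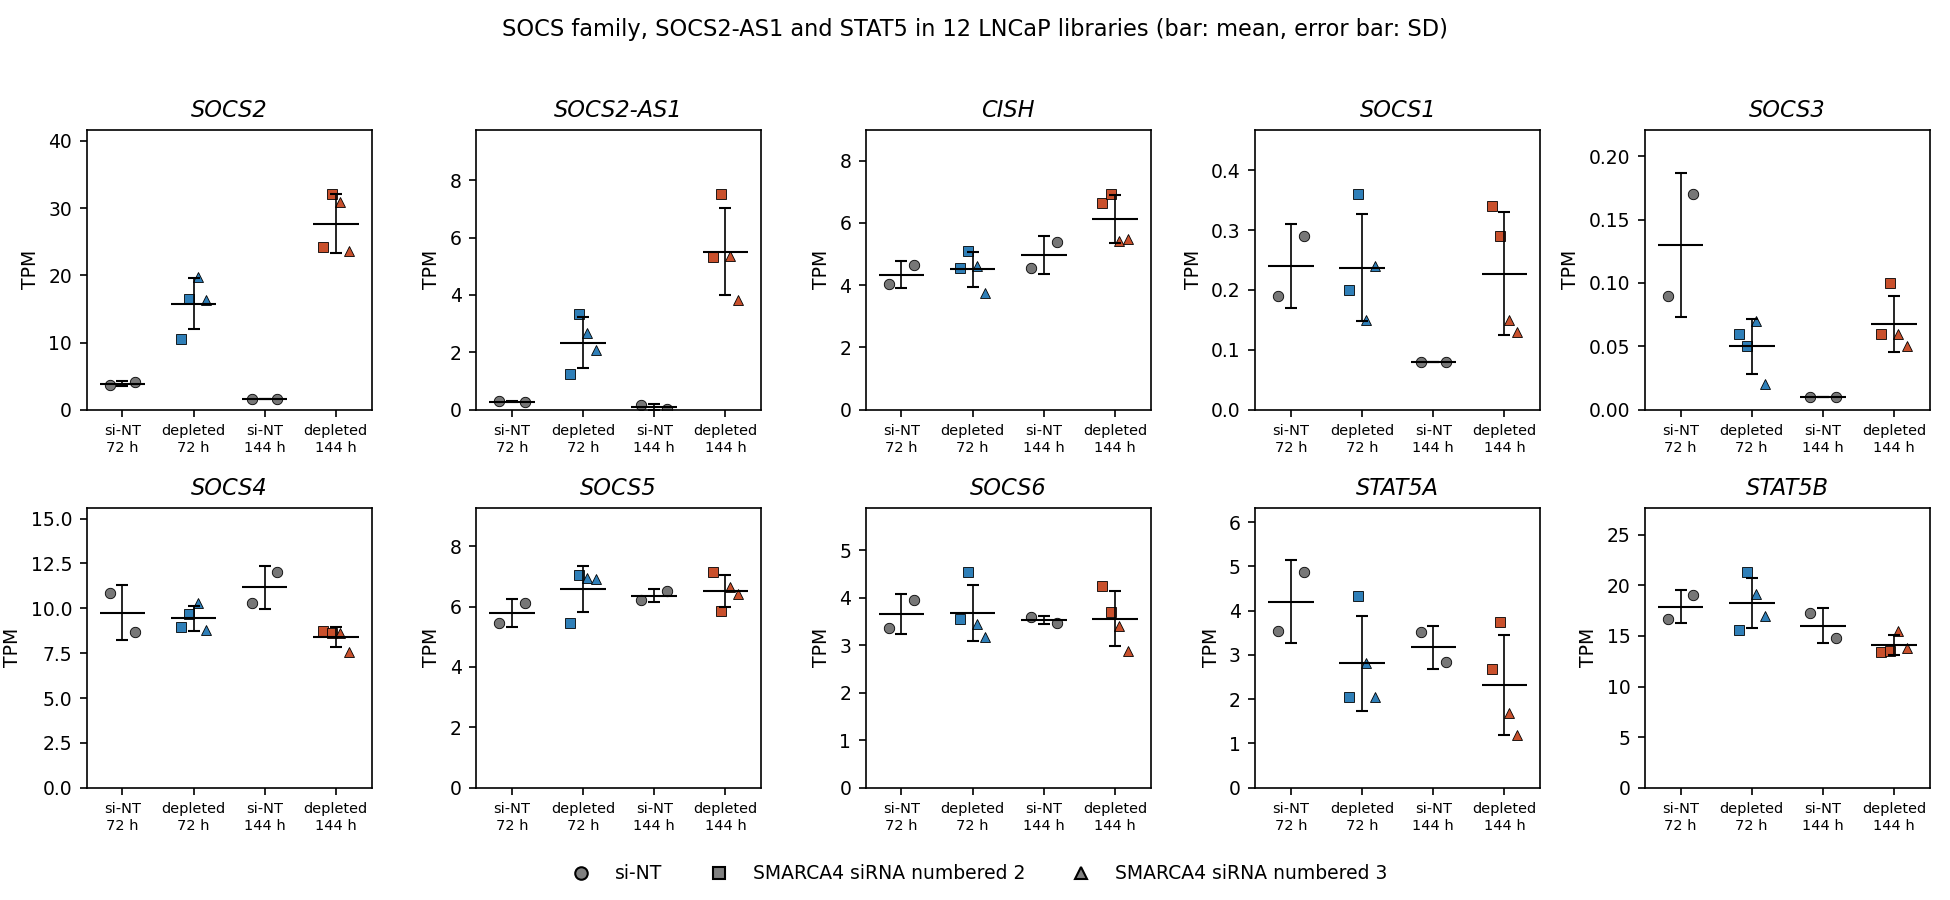
TPM (linear axis from 0, with its own range for each gene) of the 9 genes with a row and of SOCS2-AS1 in 12 libraries. Circles are si-NT, squares siRNA 2 and triangles siRNA 3, and bars give the mean with its SD for 2 si-NT or 4 BRG1 depleted libraries. SOCS2 and SOCS2-AS1 separate from their controls at both time points, while SOCS5, SOCS6, STAT5A and STAT5B overlap with theirs.

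The mean level of SOCS2 was lower at 144 h than at 72 h in the controls and higher in the depleted cells. In depleted cells the difference was 0.79 (SE 0.17) on the log2 scale, described with no test. SOCS2 was lower in si-NT at 144 h than at 72 h by -0.89 (SE 0.24) on the log2 scale, which did not pass the test over all genes (limma, adjusted p = 0.974, unadjusted p = 0.0030). SOCS2 was picked for its rise over these same controls, so its p-values here are not independent of that choice. In this comparison 0 of the 7 genes tested and 0% of all genes were called, where a call is an adjusted p under 0.05, and SOCS2 was the only 1 of the 7 with an unadjusted p under 0.05. When all 4 si-NT libraries were pooled as 1 control, the differences of SOCS2 were 2.19 at 72 h and 2.99 at 144 h.

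SOCS2 was raised with each siRNA. It differed from si-NT by 1.54 with siRNA 2 and 1.96 with siRNA 3 at 72 h, and by 3.45 and 3.41 at 144 h. The difference between the siRNAs was 0.41 (95% interval -0.08 to 0.91) at 72 h and -0.05 (95% interval -0.54 to 0.45) at 144 h, and neither passed the test (limma, adjusted p = 0.673 and 0.951). By this comparison 0 of the 7 genes were called at either time point, beside 0.141% of all genes at 72 h and 0.331% at 144 h. At an unadjusted p under 0.05 there were 0 at 72 h and 1 at 144 h, which was STAT5A.

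None of the 6 other members that could be tested was called higher in either comparison with the si-NT of its time point. Of these 6, 0 were called at 72 h, beside 1.68% of all genes (1.13% higher and 0.557% lower), and 0 had an unadjusted p under 0.05. At 144 h 0 were called higher and 1, SOCS4, was called lower, when 24.4% of all genes were called (13.6% higher and 10.8% lower). For 6 genes, counts of 0 higher are near these shares, so they do not set the family apart from all genes. For the change at 144 h minus that at 72 h, limma called 0 of the 6 (0 with an unadjusted p under 0.05), but it called only 3 of all 16337 genes (0.0184%), so this does not show that the changes were alike. The largest of the 6 was SOCS4 with -0.33 (95% interval -0.70 to 0.04). For SOCS2, described with no test, the value was 1.68 (SE 0.29).

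**Figure D2:**
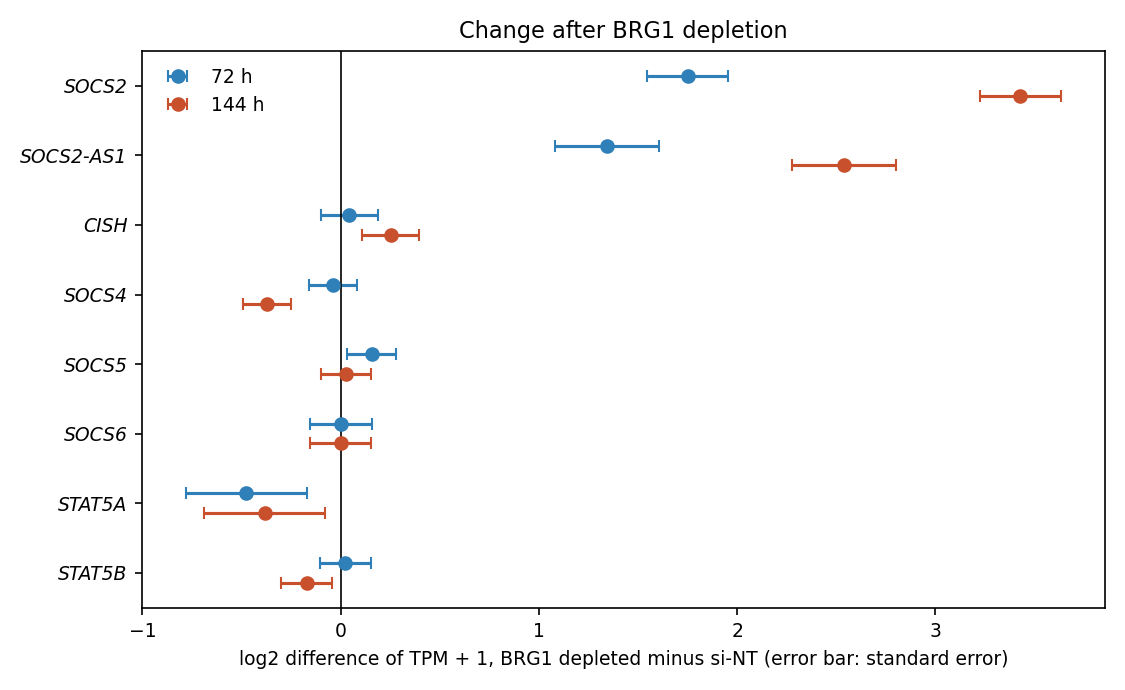
Log2 difference of TPM + 1 between BRG1 depleted and si-NT libraries (x axis) for each gene tested and SOCS2-AS1 (y axis), with its standard error, at 72 h and 144 h. SOCS2 stands at 1.75 and 3.43 and SOCS2-AS1 at 1.34 and 2.54, and the other 6 genes lie between -0.48 and 0.25.

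CISH, the closest relative of SOCS2 and the usual readout of STAT5 activity, was close to its controls at 72 h. It measured 4.03 and 4.64 TPM in si-NT, 4.56 and 5.10 TPM with siRNA 2, and 4.62 and 3.76 TPM with siRNA 3 (difference 0.04, 95% interval -0.27 to 0.36, limma, adjusted p = 0.928). At 144 h it measured 4.54 and 5.39 TPM in si-NT, 6.65 and 6.92 TPM with siRNA 2, and 5.43 and 5.47 TPM with siRNA 3. The 4 depleted libraries were above both controls, those of siRNA 3 only just, a pattern of 26.1% of all genes. The difference of 0.25 (95% interval -0.06 to 0.56) did not pass the test (limma, adjusted p = 0.227). Against the combined si-NT of both time points it was 0.33 with an adjusted p of 0.0464 by limma.

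SOCS1 and SOCS3, which block Janus kinases directly and are induced by interferons and interleukin 6 type cytokines, were barely detected. SOCS1 measured 0.19 and 0.29 TPM in si-NT and 0.15 to 0.36 TPM in depleted libraries at 72 h, and 0.08 in both si-NT libraries against 0.13 to 0.34 TPM at 144 h. SOCS3 measured 0.09 and 0.17 TPM in si-NT and 0.02 to 0.07 TPM in depleted libraries at 72 h, and 0.01 in both si-NT libraries against 0.05 to 0.10 TPM at 144 h. At 144 h the depleted libraries of both genes are above si-NT, as are those of 26.1% of all tested genes. At 72 h those of SOCS3 are below, as are those of 6.93% of all tested genes. All these levels are under the minimum for testing.

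SOCS4 and SOCS5 form a subfamily linked to the epidermal growth factor receptor. SOCS4 measured 10.8 and 8.66 TPM in si-NT and 8.81 to 10.3 TPM in depleted libraries at 72 h, with a difference of -0.04 (limma, adjusted p = 0.923). At 144 h the controls held 10.3 and 12.01 TPM, siRNA 2 gave 8.73 and 8.64 TPM and siRNA 3 gave 8.63 and 7.56 TPM. All 4 lay below both controls, as did those of 22.5% of all genes, and SOCS4 fell by 0.37 on the log2 scale (SE 0.12, limma, adjusted p = 0.0422). This call was lost in 6 of 11 other settings and in 9 of 12 fits without 1 library, with an adjusted p of up to 0.336. Those 9 libraries were all 6 of 144 h, both of siRNA 3 at 72 h and replicate 1 of siRNA 2 at 72 h, and the largest p came without si-NT replicate 2 of 144 h (difference -0.27). SOCS5 overlapped with its controls at both time points, with 5.47 to 6.51 TPM in si-NT and 5.45 to 7.14 TPM in depleted libraries. Its differences were 0.16 (adjusted p = 0.631) and 0.03 (adjusted p = 0.900).

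SOCS6, which binds receptor tyrosine kinases, overlapped with its controls. It ranged from 3.36 to 3.95 TPM in si-NT and from 2.87 to 4.54 TPM in depleted libraries, and its difference was 0.00 at both time points (95% interval -0.34 to 0.34 at 144 h).

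STAT5B was the more abundant STAT5 gene. It measured 16.7 and 19.02 TPM in si-NT and 15.6 to 21.3 TPM in depleted libraries at 72 h, and 17.2 and 14.8 TPM against 13.5, 13.5, 15.5 and 13.8 TPM at 144 h. Its differences of 0.02 and -0.17 did not pass the test (limma, adjusted p = 0.959 and 0.370). The 95% interval at 144 h was -0.45 to 0.11.

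STAT5A was low and varied between replicates. It measured 3.54 and 4.87 TPM in si-NT at 72 h, 2.06 and 4.33 TPM with siRNA 2, and 2.81 and 2.05 TPM with siRNA 3. At 144 h si-NT held 3.52 and 2.83 TPM, siRNA 2 gave 2.69 and 3.75 TPM and siRNA 3 gave 1.68 and 1.20 TPM. The groups overlapped, and the differences of -0.48 (95% interval -1.14 to 0.19) and -0.38 (95% interval -1.05 to 0.28) did not pass the test (limma, adjusted p = 0.527 and 0.395). Both siRNA 3 libraries at 144 h were below every other library of that time point, but the difference from siRNA 2 of -0.79 (SE 0.28) had an adjusted p of 0.287 by limma. STAT5A and STAT5B overlap at their 5′ ends on opposite strands and share 415 exonic bases in the annotation, 6.50% of those of STAT5A. Read in the direction of transcription, which is a separate comparison, 5.26% of the 100-base windows of STAT5A transcripts also occur in STAT5B. Reads from those windows match both genes, and how they were counted is not stated.

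The order of levels within the family changed through SOCS2. In si-NT (n = 4) STAT5B led with 16.9 TPM, followed by SOCS4 with 10.5 and SOCS5 with 6.08 TPM, each with ranges apart from the next. CISH (4.65 TPM), STAT5A (3.69 TPM), SOCS6 (3.59 TPM) and SOCS2 (2.76 TPM) followed with ranges that overlapped between neighbours, then SOCS1 and SOCS3. In depleted cells at 72 h SOCS2 (15.8 TPM) was behind STAT5B (18.2 TPM), and their ranges overlapped. At 144 h SOCS2 (27.7 TPM) was above STAT5B (14.1 TPM) with ranges apart.

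SOCS2-AS1, a long non-coding RNA on the strand opposite SOCS2, moved with it. SOCS2 (ENSG00000120833.9) lies at chr12:93963590-93977263 on the forward strand and SOCS2-AS1 (ENSG00000246985.3) at chr12:93935798-93965544 on the reverse strand (GRCh37). At 72 h SOCS2-AS1 measured 0.29 and 0.26 TPM in si-NT, 1.24 and 3.33 TPM with siRNA 2, and 2.68 and 2.07 TPM with siRNA 3. At 144 h it measured 0.18 and 0.02 TPM in si-NT, 5.33 and 7.51 TPM with siRNA 2, and 5.37 and 3.81 TPM with siRNA 3. All 4 depleted libraries were above both controls at each time point, as they were for 16.3% of all genes at 72 h and 26.1% at 144 h.

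It rose by 1.34 (SE 0.26, limma, adjusted p = 0.0318) at 72 h and by 2.54 (SE 0.26, adjusted p = 0.000134) at 144 h on the log2 scale. SOCS2-AS1 reached 1 TPM only in depleted libraries, and it was examined as a neighbour of SOCS2, which was picked for its rise. These p-values are therefore no separate evidence beside the rise of SOCS2. The call at 144 h held in every alternative that gave a value, whereas that at 72 h was lost in 3 of 10 other settings and in 8 of 12 fits without 1 library. These libraries were both si-NT at 72 h, both siRNA 3 at 72 h, replicate 2 of siRNA 2 at 72 h, both si-NT at 144 h and replicate 1 of siRNA 3 at 144 h, with an adjusted p of up to 0.173. The genes share 277 exonic bases, 4.28% of the exonic bases of SOCS2 and 6.24% of those of SOCS2-AS1. The library kit marks strand, but the strand setting of the counting is not stated, so within the shared stretch the transcripts may not have been told apart.

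**Figure D3:**
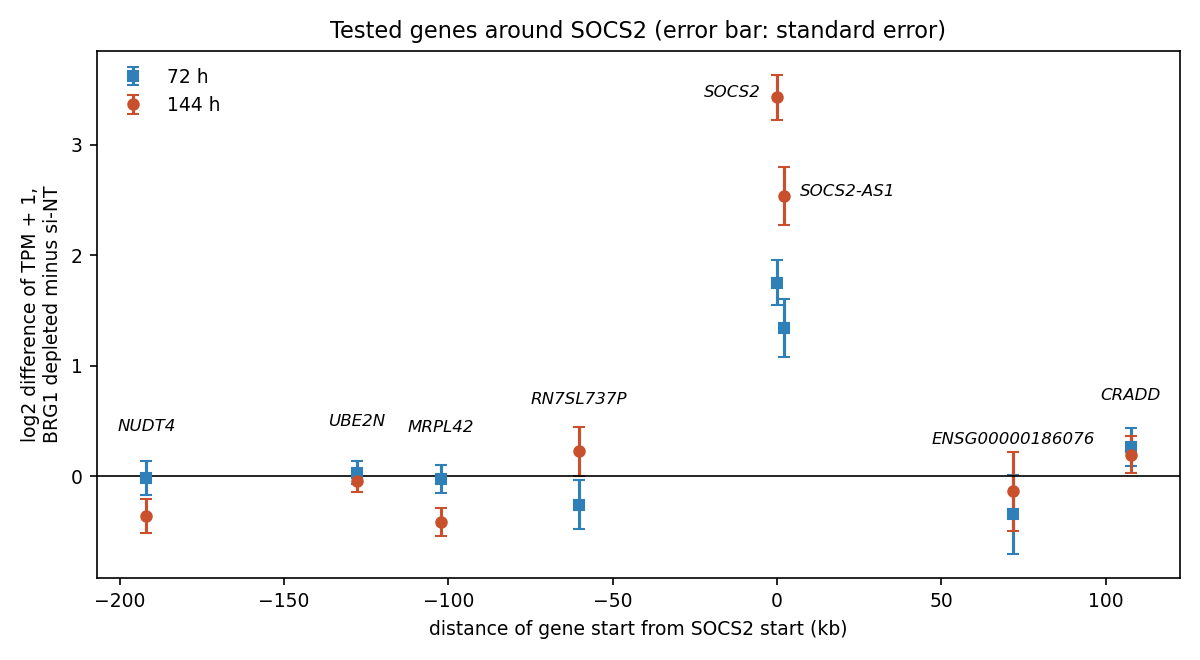
Log2 difference of TPM + 1 between BRG1 depleted and si-NT libraries (y axis, with standard error) against the distance of each gene's start from the SOCS2 start in kb (x axis), for SOCS2 and the 7 other tested genes within 500 kb. SOCS2 and SOCS2-AS1 stand at 1.34 or higher, and the other 6 genes lie between -0.41 and 0.26.

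Of the other 6 tested genes within 500 kb (NUDT4, UBE2N, MRPL42, RN7SL737P, CRADD and the pseudogene ENSG00000186076), 0 were called at 72 h (1.68% of all genes were), with differences of -0.35 to 0.26. At 144 h 1 was called, beside 24.4% of all genes (10.8% lower). This was MRPL42, which encodes a mitochondrial ribosomal protein and fell by 0.41 on the log2 scale (SE 0.13, limma, adjusted p = 0.0324). This call was lost without either si-NT library, either siRNA 2 library or siRNA 3 replicate 2 of 144 h, with an adjusted p of up to 0.217. NUDT4, with a difference of -0.36, did not pass (limma, adjusted p = 0.104). It did pass with median-of-ratios scaling (-0.39, limma, adjusted p = 0.0277) and with quantile scaling (-0.38, adjusted p = 0.0388).

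The wider pathway was read from 7 lists of 96 genes, of which 51 were tested. At 72 h 3 were called (5.88% of the 51, beside 1.68% of all genes), of which 1 was higher (1.96%, beside 1.13%) and 2 lower (3.92%, beside 0.557%). At 144 h 10 were called higher (19.6% of the 51, beside 13.6% of all genes) and 4 lower (7.84%, beside 10.8%). The median difference of the 51 genes was 0.14 at 72 h and 0.23 at 144 h, and that of all genes was 0.06 and 0.03. With libraries scaled to the spike-ins 0 of the pathway genes were called higher at 144 h, and the median of all genes was then -0.31.

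**Figure D4:**
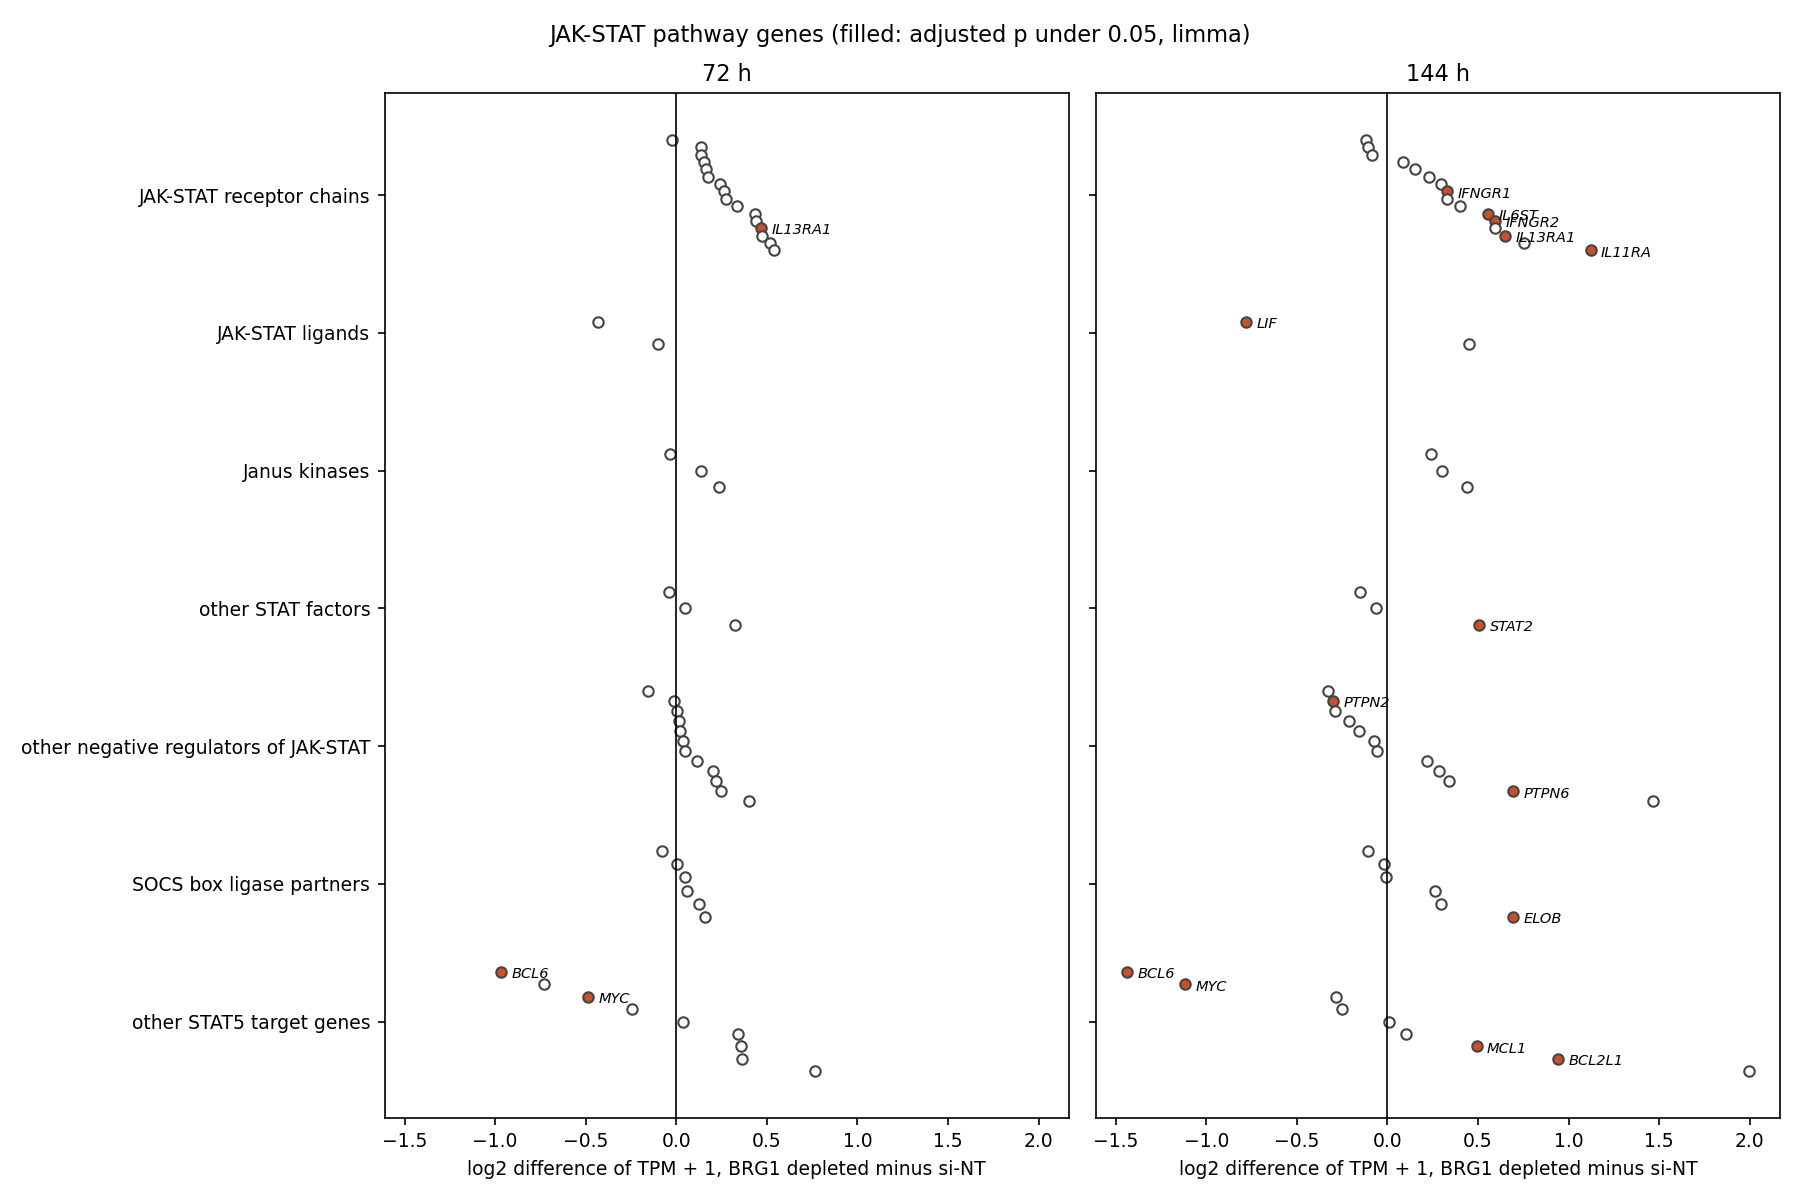
Log2 difference of TPM + 1 between BRG1 depleted and si-NT libraries (x axis) at 72 h and 144 h for the 51 tested pathway genes, 1 point a gene, grouped by list (y axis). Filled points have an adjusted p under 0.05 in limma. At 144 h 5 receptor chains are filled on the right, and BCL6, MYC, LIF and PTPN2 on the left.

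Among ligands, 2 of 20 were tested and 18 were under the minimum, growth hormone and prolactin included. LIF, the leukaemia inhibitory factor, was lower at 144 h by -0.78 (1.74 and 1.11 TPM in si-NT, 0.27 to 0.56 TPM in depleted libraries, limma, adjusted p = 0.0106), a call lost without si-NT replicate 1 (adjusted p = 0.130). LIF signals through LIFR and the shared chain IL6ST.

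Of the 37 receptor chains 16 were tested. At 72 h IL13RA1, a chain of the interleukin 4 and 13 receptors, was called higher (0.47, limma, adjusted p = 0.0437), and this was lost in each of the 12 fits without 1 library (adjusted p 0.0517 to 0.295). At 144 h 5 of the 16 were called higher, beside 13.6% of all genes, with a median over the list of 0.33 (0.03 over all genes). IL11RA, which binds interleukin 11, rose from 6.86 and 4.80 TPM to 12.02 to 16.9 TPM (difference 1.12, adjusted p = 0.000985). IL13RA1 (0.65, adjusted p = 0.00134), the interferon gamma receptor chain IFNGR2 (0.59, adjusted p = 0.0295) and IL6ST (0.56, adjusted p = 0.00769) followed in limma, and IFNGR1 (0.33, adjusted p = 0.0150) completes the 5. Without si-NT replicate 2 of 144 h IL6ST, IFNGR1 and IFNGR2 were no longer called (adjusted p up to 0.110, 0.150 and 0.191 over the fits), nor were IFNGR1 and IFNGR2 without si-NT replicate 1 or IFNGR2 without either siRNA 2 library of 144 h.

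Of the growth hormone and prolactin receptors, GHR was tested and not called, and PRLR was under the minimum for testing. GHR, the growth hormone receptor, measured 15.02 and 12.9 TPM in si-NT and 14.7 to 16.5 TPM in depleted libraries at 72 h, where the groups overlapped. At 144 h its 4 depleted libraries (16.0 to 17.01 TPM) were above both controls (15.2 and 14.5 TPM), a pattern of 26.1% of all genes. The difference was 0.15 (95% interval -0.05 to 0.35, limma, adjusted p = 0.264). PRLR, the prolactin receptor, was under 0.5 TPM in every library. GHR and PRLR were named after their values were seen.

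Of the Janus kinases 3 of 4 were tested and 0 were called, beside 1.68% of all genes at 72 h and 24.4% at 144 h. Their differences were -0.04 to 0.24 at 72 h and 0.24 to 0.44 at 144 h. Of the other STAT genes 3 of 5 were tested, and 0 were called at 72 h. At 144 h 1 of the 3 was called higher, beside 13.6% of all genes. This was STAT2, a partner in the interferon-activated complex (0.51, limma, adjusted p = 0.0438). That call was lost without either si-NT library, either siRNA 2 library or siRNA 3 replicate 1 of 144 h (adjusted p up to 0.298).

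Of 12 other negative regulators tested, 0 were called at 72 h and 2 at 144 h, beside 1.68% and 24.4% of all genes. PTPN6, which encodes the phosphatase SHP-1, rose by 0.70 (limma, adjusted p = 0.00285), from 12.5 and 11.9 TPM to 19.1 to 22.2 TPM. PTPN2, a phosphatase of Janus kinases and STATs, fell by 0.30 (adjusted p = 0.0429), a call lost in 8 of 12 fits without 1 library (all of 144 h but siRNA 3 replicate 2, and at 72 h siRNA 2 replicate 1 and both of siRNA 3, adjusted p up to 0.240). Among the 6 ligase partners of the SOCS box 1 was called higher at 144 h, beside 13.6% of all genes. This was ELOB, which encodes elongin B (0.70, limma, adjusted p = 0.0262). The call was lost in 3 of 11 other settings (no filter, median-of-ratios and ERCC scaling). It was also lost without either si-NT library of 144 h (differences 0.66 and 0.73).

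Other genes known as STAT5 targets went both ways. BCL6, a transcriptional repressor that STAT5 is known to repress in lymphocytes, measured 32.4 and 41.9 TPM in si-NT and 17.4 to 20.5 TPM in depleted libraries at 72 h, and 48.1 and 35.3 TPM against 12.7 to 16.1 TPM at 144 h. It fell by 0.97 and 1.44 on the log2 scale (limma, adjusted p = 0.0101 and 0.000126), and the call at 72 h was lost without si-NT replicate 2 of 72 h (adjusted p = 0.109). MYC, a driver of growth, fell by 0.49 (adjusted p = 0.0292) and 1.12 (adjusted p = 3.86e-05), the first lost in 6 fits without 1 library (adjusted p up to 0.161). Those were both si-NT, both siRNA 2 and siRNA 3 replicate 2 of 72 h, and si-NT replicate 2 of 144 h.

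BCL2L1, which encodes the survival protein BCL-xL, was higher at 144 h by 0.94 (limma, adjusted p = 4.27e-05), with 46.2 and 43.7 TPM in si-NT and 84.3 to 92.3 TPM in depleted libraries. MCL1, another survival gene, was higher by 0.49 (adjusted p = 0.0321), a call lost without either si-NT or either siRNA 2 library of 144 h (adjusted p up to 0.155). In all 2 of 9 tested targets were called higher and 2 lower at 144 h (beside 13.6% and 10.8% of all genes). Their median difference was 0.01 (0.03 over all genes), with BCL6, which STAT5 is known to repress, counted in. The highest difference of the 9, 1.99 for ID1, was not called. ID1 measured 11.4 and 12.1 TPM in si-NT and 30.8 to 125.6 TPM in depleted libraries at 144 h, a separation seen for 26.1% of all genes.

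Genes most like SOCS2 over the 12 libraries were found among all tested genes by Pearson's r of log2(TPM + 1). MEAF6 (r = 0.988), LINC00342 (0.979), CORO2A (0.975), PNMA1 (0.970) and MAGED2 (0.969) led, with differences at 144 h of 1.93, 1.10, 1.03, 1.55 and 1.23. None of them is in the pathway lists. Within the family r with SOCS2 was 0.45 for CISH, 0.36 for SOCS5, 0.01 for SOCS6, -0.25 for STAT5B, -0.42 for STAT5A and -0.70 for SOCS4. The genes most like CISH were NUDT8 (0.953), TMEM185A (0.940), CTSH (0.937), MATN2 (0.937) and CCDC85C (0.923). These are descriptions over 12 libraries in 4 groups that every gene shares.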

How the data were processed

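The authors extracted RNA with TRIzol, added ERCC spike-ins, prepared stranded mRNA libraries, trimmed paired-end reads with Trim Galore 0.11.2, aligned them to hg19 (GRCh37) with STAR 2.4.0j, counted them with featureCounts on GENCODE genes and deposited TPM. Every library has the same TPM total with 92 spike-ins included, so spike-in normalisation is not kept. Read depth cannot be had from TPM; count models and counting intervals were not used, and precision was judged from replicates.

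Here log2(TPM + 1) was fitted with limma 3.58.1 (lmFit, eBayes with trend, R 4.3.3) for the 16337 genes that reached 1 TPM in 2 or more libraries, over 12 libraries in 4 groups. The siRNAs were compared in 6 groups. Adjusted p-values are Benjamini-Hochberg values over all genes tested, and a gene was called under 0.05. Tables and figures were made with Python 3.11.15, NumPy 2.4.6, pandas 2.3.3 and matplotlib 3.10.9.

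Members and lists were chosen with earlier results of these data known. Named genes are all members, SMARCA4, tested genes within 500 kb of SOCS2, and the 5 genes most like SOCS2 and CISH. From each list they are up to 4 genes called at 144 h with the largest change, plus those called at 72 h. Genes named outside this rule are IFNGR1, GHR, PRLR and ID1. Positions come from GENCODE release 44 lifted to GRCh37, start-site sequences from RefSeq (GRCh38.p14). Alternatives were a pseudocount of 0.1, no filter, a mean of at least 5 TPM, median-of-ratios, ERCC or quantile scaling, a replicate block, no trend, the libraries of a time point only, 6 groups, combined si-NT, stricter calls and each library left out. The authors' counts and other assays were not analysed here.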

Additional observations from a re-analysis of the deposited data

Results flagged for a closer look

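Among 20 groups of 4 depleted libraries checked for a library far from the rest, of which chance flags about 1 in 20, there were 2. SOCS4 at 144 h measured 7.56, 8.63, 8.64 and 8.73 TPM, and the gap below the lowest library (siRNA 3 replicate 2) took up 0.915 of the range. SOCS5 at 72 h measured 5.45, 6.93, 6.96 and 7.03 TPM, with a gap of 0.937 of the range below siRNA 2 replicate 1.

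SOCS3 moved in opposite directions at the time points, with all depleted libraries below si-NT at 72 h (mean difference -0.08 TPM) and all above at 144 h (0.0575 TPM). Of all tested genes 6.93% were below in this way at 72 h and 26.1% above at 144 h. The changes of SOCS3 were not tested, and every value of SOCS3 was at or below 0.17 TPM.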

How the results depend on the processing

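The rise of SOCS2 kept its direction in every setting run. At 72 h it was 2.19 with combined si-NT, and at 144 h it was 3.98 with a pseudocount of 0.1, 3.10 with ERCC scaling and 2.99 with combined si-NT. Of members other than SOCS2, 0 of 136 values at 72 h passed the threshold under the alternatives, and 9 of 136 did at 144 h (8 for SOCS4 and 1 for CISH). The number called at 144 h was 0 with no filter, ERCC scaling, the replicate block, the libraries of the time point only, 6 groups, a log2 limit of 1.5 or an adjusted p under 0.01, and 0 to 1 with a library left out. Under ERCC scaling the all-gene median difference was -0.11 (72 h) and -0.31 (144 h). On that scale CISH stood at -0.08 at 144 h, which is 0.23 above the median, and IFNGR1 at -0.056, with the sign turned. Pathway genes called at 72 h numbered 0 with ERCC scaling or the time point only, 7 with combined si-NT and 1 to 2 with a library left out. Those called higher at 144 h numbered 6 with no filter, 0 with ERCC scaling and 17 with combined si-NT. Leaving out a si-NT library leaves 1 control at its time point, which is assumed to vary like the other groups. These fits are among the values of single genes, and the numbers of genes called at a time point leave out those fits where its own controls were reduced. Replicate numbers did not pair the libraries (correlations of -0.23 to 0.30 over 15 pairs of groups, 2 over 0.1). With the replicate block SOCS4 had an adjusted p of 0.0539 at 144 h, and IL13RA1 at 72 h (0.0714), PTPN2 (0.0533) and STAT2 (0.0590) at 144 h were also no longer called. Depth limits are unknown with TPM.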
